A study of Mus musculus with 16 samples.

Results

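The 6 Dlx genes and the glutamate decarboxylase genes Gad1 and Gad2, 8 of 21887 annotated protein-coding genes, were followed through 13 lists of enriched regions, called islands, in mouse neural stem cells. The gene of interest in the study is Setd5, described in its title as encoding a methyltransferase of lysine 36 of histone H3. The 8 genes were chosen by family and on earlier results of these data, in which Dlx1 had H3K27me3 at its ends in wild-type cells only. Their H3K27me3 values are therefore a description. Each gene was taken as its GRCm38 span with 5 kb on each side, and the Dlx1-Dlx2, Dlx3-Dlx4 and Dlx5-Dlx6 pairs were also taken whole with the gap between them, which gives 5 loci. With their flanks these are chr2:71523113-71551754 for Dlx1-Dlx2, chr11:95115117-95151294 for Dlx3-Dlx4, chr6:6858334-6887068 for Dlx5-Dlx6, chr2:70556303-70607014 for Gad1 and chr2:22616015-22698877 for Gad2.

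Chromatin immunoprecipitation and sequencing was done on neural stem cells derived from the telencephalic cortex of mouse embryos at E14.5, grown as neurospheres and plated on Matrigel before fixation. One set of 6 libraries (H3K27me3, H3K4me3, H3K27ac, H3K4me1, H3K36me3 and H3K36me2) came from wild-type cells and the other 6 from Setd5+/- cells, which carry 1 intact copy of Setd5. A library for V5-tagged SETD5 came from cells named as wild type. The allele, the strain, the number of embryos behind each culture and the way in which the tag was introduced do not stand in the labels, and 3 input samples were not analysed here. Each group had 1 library, so no difference between genotypes has a replicate check or a p-value, and a loss of a mark in all cells cannot be told apart from its loss in some of them.

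DLX proteins are homeodomain transcription factors. Dlx1, Dlx2, Dlx5 and Dlx6 are switched on in the ganglionic eminences of the ventral telencephalon, where they drive the differentiation and migration of GABAergic interneurons, and their targets include Gad1 and Gad2, the genes of the enzymes that make GABA. Dlx3 and Dlx4 are known mainly from skin, teeth and placenta. The genes lie in pairs that point towards each other and share enhancers in the gap, and in cells of other lineages they are classic targets of Polycomb, whose mark H3K27me3 goes with silencing. H3K4me3 marks promoters, H3K27ac active promoters and enhancers, H3K4me1 enhancers, and H3K36me3 the bodies of transcribed genes.

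Start regions of members that carried H3K4me3 are shown here, since the differences at Dlx1 and Dlx2 centred on them. The RefSeq promoter table of GRCm38.p6 matched 4 of the 8 members, but not Dlx4, which also carried H3K4me3. The 250 bases before each start are printed 5′ to 3′ with CG dinucleotides in capitals. Dlx1 is on the plus strand at chr2:71529195-71529444, Dlx2 on the minus strand at chr2:71546755-71547004, Gad1 on the plus strand at chr2:70561879-70562128 and Gad2 on the plus strand at chr2:22622077-22622326.
Dlx1: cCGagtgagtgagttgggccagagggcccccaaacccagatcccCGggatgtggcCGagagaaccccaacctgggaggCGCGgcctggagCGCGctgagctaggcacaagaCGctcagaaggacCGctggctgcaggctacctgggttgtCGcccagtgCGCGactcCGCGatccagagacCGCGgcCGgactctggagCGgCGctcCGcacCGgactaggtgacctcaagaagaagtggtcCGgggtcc
Dlx2: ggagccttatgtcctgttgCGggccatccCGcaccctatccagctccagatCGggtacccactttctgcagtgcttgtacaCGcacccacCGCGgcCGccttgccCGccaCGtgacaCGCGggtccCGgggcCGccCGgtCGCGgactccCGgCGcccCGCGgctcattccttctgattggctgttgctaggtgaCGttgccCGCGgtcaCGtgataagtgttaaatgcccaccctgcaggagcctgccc
Gad1: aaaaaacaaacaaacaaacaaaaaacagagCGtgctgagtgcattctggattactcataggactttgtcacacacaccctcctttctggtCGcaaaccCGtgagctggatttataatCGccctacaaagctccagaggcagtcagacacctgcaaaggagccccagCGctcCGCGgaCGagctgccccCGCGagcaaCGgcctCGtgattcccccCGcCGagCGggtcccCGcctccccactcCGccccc
Gad2: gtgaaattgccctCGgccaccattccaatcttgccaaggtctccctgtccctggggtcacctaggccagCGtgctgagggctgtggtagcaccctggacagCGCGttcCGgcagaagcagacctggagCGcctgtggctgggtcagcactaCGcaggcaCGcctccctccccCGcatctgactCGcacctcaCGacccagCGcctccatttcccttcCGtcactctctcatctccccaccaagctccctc
The Dlx1 and Dlx2 windows were rich in CpG, with 22 and 24 CG dinucleotides in 250 bases and G and C shares of 68.0% and 66.4%, against medians of 6 and 52.4% over 32851 promoters. Gad1 had 17 CG dinucleotides and Gad2 had 13. The letters TAATTA, a core that homeodomain proteins bind and which read the same on both strands, were in none of the 4 windows and in 4.84% of all promoters of that length. Dlx6os1, the long noncoding RNA that overlaps Dlx6 and is also known as Evf2, had 2 windows, both on the minus strand. TAATTA stood at 2 places in that at chr6:6869534-6869783 and at 1 place in that at chr6:6861684-6861933. The windows of Dlx6os2, Gad1os and Dlx4os had none. The first Dlx6os1 window, with TAATTA in capitals, is shown because it lies in the Dlx5-Dlx6 gap under H3K27me3 in both genotypes.
Dlx6os1: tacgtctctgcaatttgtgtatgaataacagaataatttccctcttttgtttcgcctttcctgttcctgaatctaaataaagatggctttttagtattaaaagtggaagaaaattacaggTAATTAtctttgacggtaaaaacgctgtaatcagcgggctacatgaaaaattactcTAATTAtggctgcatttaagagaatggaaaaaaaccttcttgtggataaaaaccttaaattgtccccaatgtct
Its G and C share was 33.2%, and it held 5 CG dinucleotides. The Dlx1 and Dlx2 starts thus differed in base composition from the Dlx6os1 start shown. The Dlx6os2 window, also under H3K27me3 in both genotypes, had a share of 52.4% and 7 CG dinucleotides. Dlx5 and Dlx6 were not matched, so their own starts could not be compared. A link of base composition with H3K27me3 was not tested.

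The labelled cell type was checked on H3K27ac and H3K4me3 within 1 kb of gene ends. H3K27ac was present in both genotypes at 8 of 10 genes that mark neural stem cells or radial glia, all but Pax6 and Prom1. Among dorsal telencephalon genes H3K27ac was called at Emx2 in both genotypes and at Lhx2 in wild type only, and Emx1, which defines the cortex, carried H3K27me3 and neither active mark in both. Among ventral telencephalon genes it was called at Olig2 in both and at Nkx2-1, Gsx1, Gsx2, Lhx6 and Lhx8 in neither. None of 5 neuronal genes and none of 6 genes of microglia, endothelium and mesenchyme had H3K27ac in either genotype, and of 6 astrocyte and oligodendrocyte genes S100b had it in Setd5+/- cells only. H3K4me3 was present in both genotypes at 9 of the 10 stem cell genes, all but Pax6, and also at 3 of the 5 neuronal genes (Tubb3, Syt1 and Snap25), at S100b and Mbp, and at Col1a1 of the mesenchyme. Reads inside islands ran from 1019278 to 5093126 per library, and islands do not measure the transcript, so they are no check of the genotype.

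Dlx1 and Dlx2, on chromosome 2, had H3K27me3 in wild-type cells only and more H3K4me3 in Setd5+/- cells. In wild-type cells a single H3K27me3 island of 29.2 kb (71521801 to 71551000) ran from the end of the neighbouring gene Metap1d across Dlx1, the antisense RNA gene Dlx1as and Dlx2. It held 2580 reads (95% Poisson interval 2481 to 2682), or 88.4 reads per kb, which placed it at percentile 99.5 of 19791 wild-type H3K27me3 islands by density and 81st by width. In Setd5+/- cells the whole window of 28.6 kb was without an H3K27me3 island. The least dense H3K27me3 island called in that library had 14.2 reads per kb. Reads outside islands are unknown, so no fold change is given. The H3K27me3 libraries held 2297833 (wild type) and 1398086 (Setd5+/-) reads in islands, and the part of that difference in the result was not tested.

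H3K4me3 islands over the same pair held 141 reads in 3.0 kb in wild type and 720 reads in 6.6 kb in Setd5+/- cells. At the Dlx1 start the wild-type island had 38 reads in 0.8 kb, and the Setd5+/- island (71528401 to 71531000) had 362 reads in 2.6 kb. Its density went from 47.5 (33.6 to 65.2) to 139 (125 to 154) reads per kb. The difference on the log2 scale was 1.55 (1.07 to 2.07, exact binomial interval for counting error only), and 1.45 after subtracting the median of 0.10 over 19710 overlapping autosomal pairs of H3K4me3 islands. It lay at percentile 99.8 of those pairs. The intervals of the genotypes do not overlap at this start.

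The Dlx2 start differed in density but little in length. H3K4me3 there covered 2.2 kb with 103 reads in wild type and 2.0 kb with 246 reads in Setd5+/- cells. The density went from 46.8 (38.2 to 56.8) to 123 (108 to 139) reads per kb, a log2 difference of 1.39 (1.06 to 1.74) at percentile 99.6 of the pairs. The intervals of the log2 differences at Dlx1 and Dlx2 overlap.

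The gap of 9.43 kb between Dlx1 and Dlx2 was wholly under H3K27me3 in wild type and free of it in Setd5+/- cells. It held no H3K4me3 in wild type and 2 islands in Setd5+/- cells. The first (71537401 to 71538400, 77 reads) spans the end of Dlx1as that faces Dlx2, and the second (71542601 to 71543600, 35 reads) reaches the end of Dlx2 that faces Dlx1. Neither H3K27ac nor H3K4me1 was called in the gap in either genotype. One H3K27ac island, of 1.0 kb and 24 reads, lay over the Dlx1 start in Setd5+/- cells only, and 1 H3K4me1 island, of 1.4 kb and 35 reads, lay over the Dlx2 start in wild type only. By density the first lay at percentile 62.3 and the second at percentile 21.7 of their lists.

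**Figure D1:**
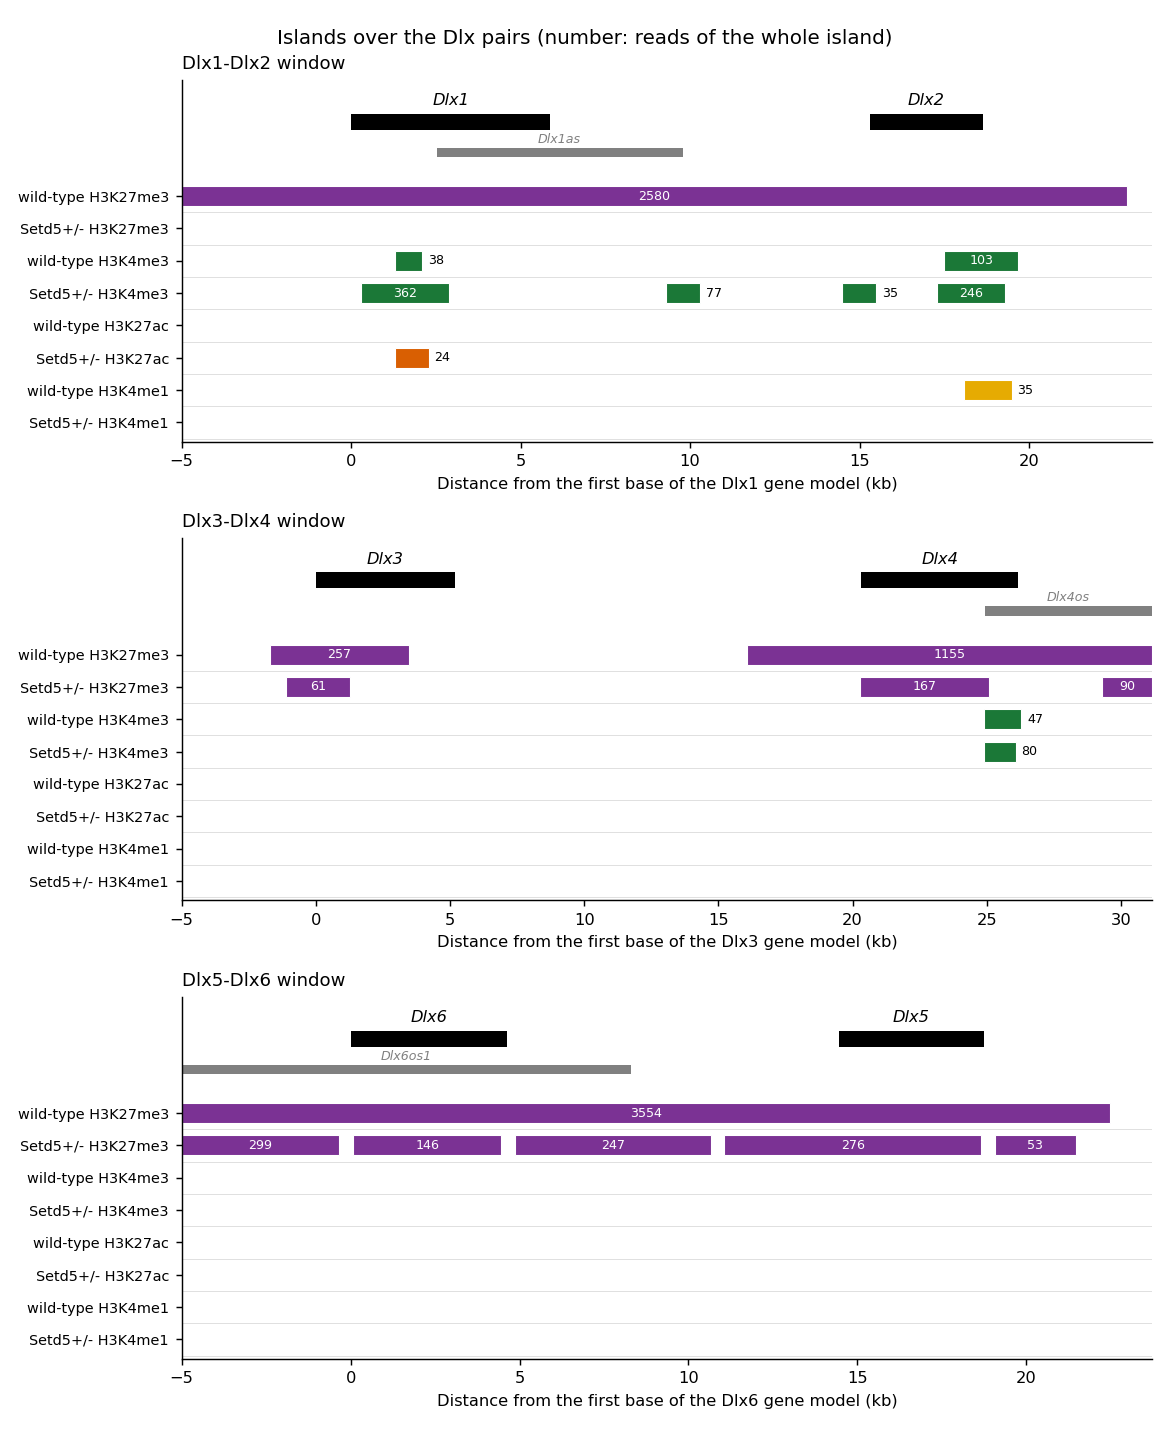
Islands over the 3 Dlx pairs by distance in kb from the first base of the gene model named under each axis. Black bars are genes, grey bars noncoding genes, coloured bars the islands of 1 library each, cut at the window's edge, with the reads of the whole island as a number. H3K27me3 is absent from the Dlx1-Dlx2 window in Setd5+/- cells, is shorter over Dlx3-Dlx4 and lies in 5 islands over Dlx5-Dlx6.

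Dlx5 and Dlx6, on chromosome 6, kept H3K27me3. In wild type 1 island of 45.8 kb (6840001 to 6885800) with 3554 reads, the 20th widest of its list, covered both genes and much of Dlx6os1. In Setd5+/- cells 8 islands covered 40.2 kb of it, or 87.8% of its length, and 5 of them lay in the window of the pair. Dlx6 was covered over 14.6 and 13.8 kb, in wild-type and Setd5+/- cells, and Dlx5 over 13 and 11.2 kb. The gap, which holds enhancers known to serve both genes, was covered over 100% and 93.6%. No island of H3K4me3, H3K27ac, H3K4me1, H3K36me3 or H3K36me2 was called in the window in either genotype. The SETD5-V5 library, from wild-type cells only, had none there.

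The density over Dlx5-Dlx6 was lower in Setd5+/- cells, at 35.1 reads per kb over the length still covered against 77.6 in wild type, a log2 difference of −1.15. The 8 single islands had 22.1 to 45.3 reads per kb. Over the 160 autosomal wild-type islands of at least 20 kb that still met a Setd5+/- island, the median difference was −0.88, and Dlx5-Dlx6 lay at percentile 20 of them. Scaled to all H3K27me3 reads in islands, the differences of the 8 islands from the wild-type one were −1.10 to −0.06.

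Dlx3 and Dlx4, on chromosome 11, came between the other pairs. The wild-type island over Dlx3 was 5.2 kb with 257 reads, and the Setd5+/- one was 2.4 kb with 61 reads. Over Dlx4 a wild-type island of 16.6 kb with 1155 reads stood against 2 Setd5+/- islands of 4.8 kb with 167 reads and 3.0 kb with 90 reads. Within 5 kb of the gene, covered length was 15.1 and 6.69 kb, but within the Dlx4 gene itself 5.85 and 4.75 kb, so most of the difference lay outside the gene. At the end of Dlx4 that the Setd5+/- H3K27me3 islands left mostly uncovered, H3K4me3 was called in both genotypes, with 47 reads in 1.4 kb in wild type and 80 reads in 1.2 kb in Setd5+/- cells. The log2 difference in density of that H3K4me3 island was 0.99 (0.45 to 1.54), at percentile 98.1 of the autosomal pairs. Dlx3 had no H3K4me3 in either genotype, and neither gene had H3K27ac or H3K4me1.

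**Figure D2:**
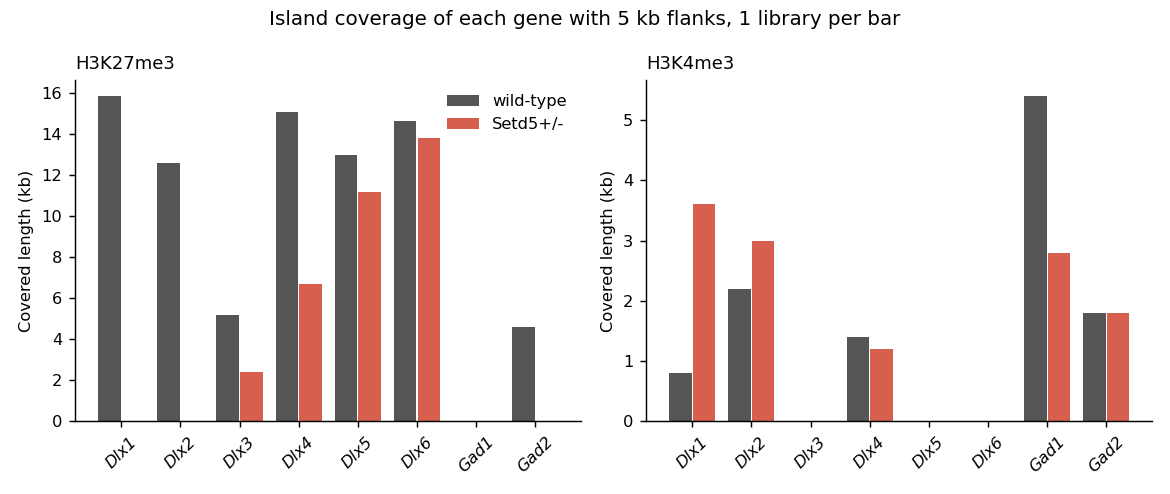
Length in kb covered by H3K27me3 islands (left) and H3K4me3 islands (right) over each gene with 5 kb on each side, in wild-type and Setd5+/- cells, 1 library per bar and so no error bars. H3K27me3 bars of Dlx1, Dlx2 and Gad2 are at 0 in Setd5+/- cells, and the H3K4me3 bar of Dlx1 goes from 0.8 to 3.6 kb.

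Gad1 and Gad2, both on chromosome 2, encode the enzymes GAD67 and GAD65 and differed from the Dlx genes and from each other. Gad1 had no H3K27me3 in either genotype and the strongest H3K4me3 of the members in wild type, an island of 3.8 kb with 506 reads over its start. In Setd5+/- cells that island was 2.8 kb with 316 reads. Its density went from 133 (122 to 145) to 113 (101 to 126) reads per kb, a log2 difference of −0.24 (−0.45 to −0.03). This difference lay at percentile 14.9 of the autosomal pairs. A second wild-type H3K4me3 island of 1.6 kb and 60 reads inside Gad1os, the noncoding gene that overlaps the Gad1 start, had no Setd5+/- partner.

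Gad1 was the member with H3K36me3, and only in wild type. The island of 44.8 kb (70568001 to 70612800) held 544 reads (499 to 592), or 12.1 reads per kb, and covered 39.0 kb of the Gad1 window. No H3K36me3 island was called there in Setd5+/- cells, although that library had more reads in islands, 3561439 against 2468530. The islands of that library had at least 10.2 reads per kb, with the 5th percentile at 12.8, against 7.31 and 9.11 in wild type. The wild-type density at Gad1 thus lay below the 5th percentile of the Setd5+/- list, but at percentile 57.4 of its own list. Median densities were 11.75 reads per kb in wild type and 16.2 in Setd5+/- cells, so densities of the libraries are not on one scale. The part of this difference between libraries in the result was not tested. A SETD5-V5 island of 16 kb and 226 reads (70576001 to 70592000) lay inside the wild-type H3K36me3 island. At 14.1 reads per kb it was among the least dense of its list, at percentile 2.07. The next gene beyond Gad1, Gorasp2, a gene of the Golgi, had H3K36me3 over 29.3 kb in the wild-type library and over 17.3 kb in the other.

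Gad2 carried weak H3K27me3 and H3K4me3 side by side near its start in wild type. The H3K27me3 islands were 3.0 kb with 70 reads and 1.6 kb with 37 reads, 23.3 and 23.1 reads per kb, and neither had a Setd5+/- partner. The lower of these lay at percentile 23.9 of its list. H3K4me3 over the start covered 1.8 kb in both genotypes, with 66 reads in wild type and 81 in Setd5+/- cells. The log2 difference in density was 0.30 (−0.19 to 0.79), an interval that holds 0. A single H3K4me1 island of 1.6 kb and 31 reads lay inside the gene in Setd5+/- cells only. No H3K36me3 was called over Gad2 in either genotype.

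**Figure D3:**
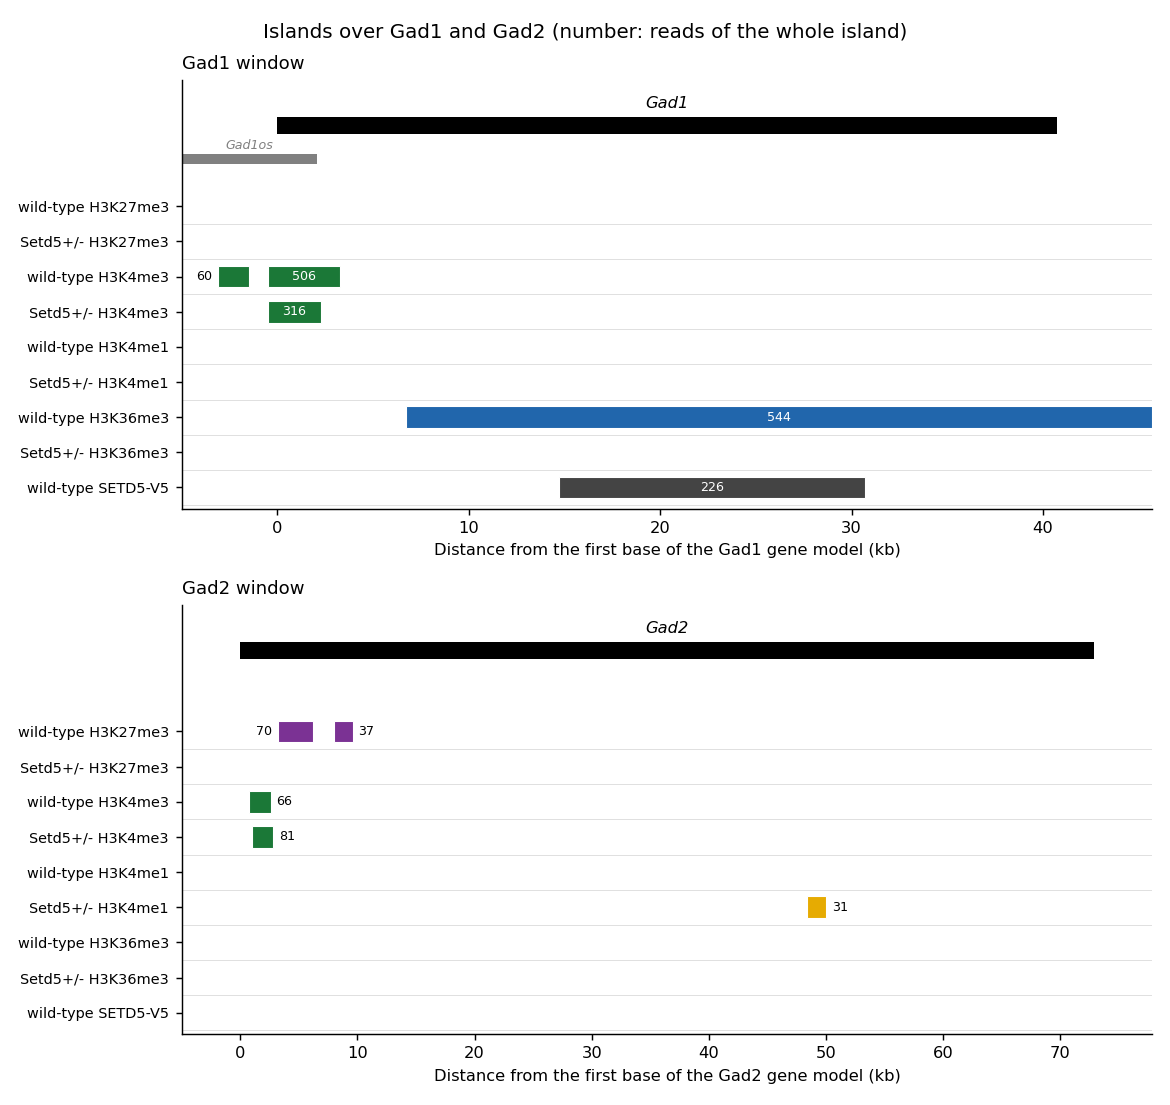
Islands over Gad1 and Gad2 by distance in kb from the first base of each gene model, drawn as for the Dlx pairs, with H3K36me3 and SETD5-V5 added and H3K27ac, not called at either gene, left out. The Gad1 body has H3K36me3 (544 reads) and SETD5-V5 (226 reads) in wild type and no H3K36me3 in Setd5+/- cells, and the H3K27me3 islands of Gad2 (70 and 37 reads) are in wild type only.

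Set beside all genes, the members compare as follows, where a call is a difference of at least 2-fold in covered length with at least 1 kb in the longer genotype. H3K27me3 was called lower at 5 of the 7 members that had at least 1 kb of it (Dlx1, Dlx2, Dlx3, Dlx4 and Gad2) and higher at none, against 43.1% lower and 22.1% higher of 4265 genes with that mark. The choice of the members used this contrast. The median change was −3.70 kb over all 8 members and −4.6 kb over those 7, against −1.4 kb over the 4265 genes. H3K4me3 was called higher at 1 of 5 members (Dlx1), against 3.13% of genes, and lower at none, against 3.42%. H3K27ac was called higher at the 1 member that had it (Dlx1), against 18.9% of genes. Dlx1 had none in wild type, so this call followed from reaching 1 kb in Setd5+/- cells.
H3K36me3 was called lower at the 1 member that had it (Gad1), against 11.9%. H3K4me1 was called lower at Dlx2, against 48.6%, and higher at Gad2, against 8.87%. These genes had none of the mark in the other genotype, so the H3K36me3 and H3K4me1 calls also followed from reaching 1 kb. H3K36me2 was called at no member in either genotype, where 5.31% of genes had it in wild type and 6.11% in Setd5+/- cells. SETD5-V5 touched 1 of 8 members, against 26.4% of genes. No member lies on chromosomes 1, 4 and 15, which are set apart below. On the other autosomes the shares called lower and higher were 41.9% and 19.4% for H3K27me3 and 3.53% and 2.28% for H3K4me3. For H3K27ac they were 18.9% and 14.7%, for H3K4me1 53.8% and 5.46%, and for H3K36me3 12.9% and 12.2%.

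Few wide H3K27me3 islands, that at Dlx1-Dlx2 among them, were without any island in Setd5+/- cells. This comparison was chosen after the values were seen. Of 169 autosomal wild-type islands of at least 20 kb, 9 (5.33%) had no Setd5+/- island anywhere along them, and the median island was still covered over 88.2% of its length. The island at Dlx5-Dlx6, at percentile 49.7 for the length kept, was thus near the middle. The other 6 of the 9 that touched a protein-coding gene held developmental regulators or cell cycle genes: En1, Ebf1, Otx2, Cdkn2a, Gsx2 and Dbx1. Gsx2 acts upstream of Dlx genes in the ventral telencephalon, Otx2 and En1 pattern forebrain and midbrain, and Cdkn2a encodes cell cycle inhibitors. In wild type only Gsx2 of the others was as dense as Dlx1-Dlx2 (88.4 reads per kb), with Otx2 (86.4) and En1 (83.9) close below. Some of the 160 islands that met a Setd5+/- island kept little of their length. The one touching Lrba and Mab21l2, named after its values were seen, had 99.9 reads per kb over 70.8 kb and kept 2.82%. More H3K4me3 length was found in Setd5+/- cells at 7 of the 9, with a median change of 2.0 kb over all 9, and at 24 of the 160 others, with a median of 0. H3K4me3 reads along these islands went from 0 to 604 at En1, from 0 to 138 at Otx2, from 28 to 129 at Gsx2, from 195 to 862 at Cdkn2a, from 107 to 334 at Ebf1 and from 141 to 312 at Dbx1. Of the 2 that touched no protein-coding gene, the one on chromosome 3 went from 68.2 to 43.5 and the one on chromosome 17 had none in either genotype. En1 is on chromosome 1 and Cdkn2a on chromosome 4, which with chromosome 15 stood apart from the other autosomes. For all 6 marks the ratio of covered length, Setd5+/- over wild type, was higher on these 3 than on any other autosome, for H3K27me3 at 1.25 to 2.38 against 0.649 to 1.03. No member lies on them. Without them 7 of 140 wide islands had no Setd5+/- island, 5 of these with more H3K4me3 length, and the median change over the 7 was 0.4 kb.

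**Figure D4:**
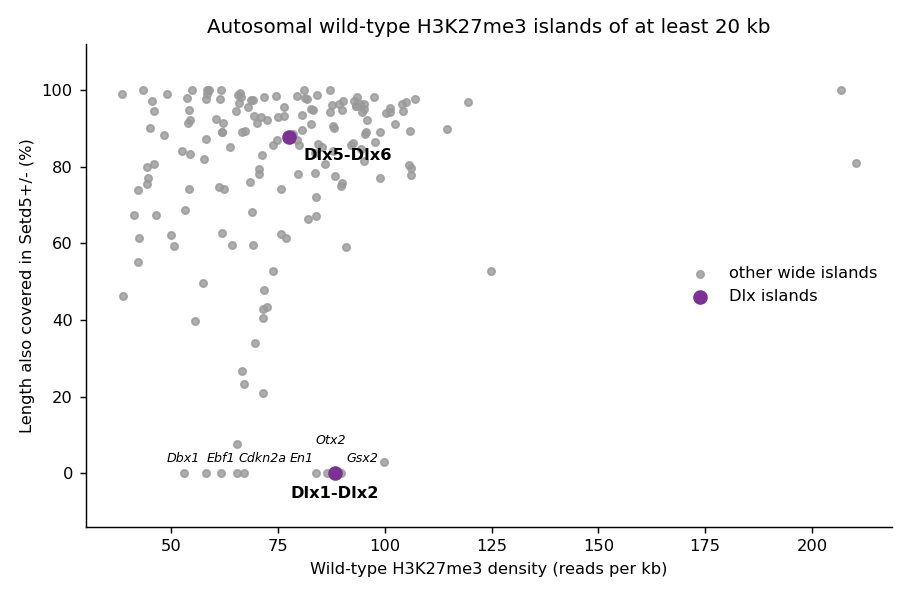
Each point is 1 of 169 autosomal wild-type H3K27me3 islands of at least 20 kb, by its wild-type density in reads per kb and by the percent of its length also covered in Setd5+/- cells. Most points lie near the top (median 88.2%), with Dlx5-Dlx6 among them at 87.8%, and 9 islands including Dlx1-Dlx2 lie at 0, with the protein-coding genes they touch named.

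The genes next to the members had little H3K27me3. Of the 10 protein-coding genes nearest to the 5 loci, only Metap1d, which ends 2.92 kb from Dlx1, had H3K27me3 in either genotype, and its 3.39 kb were the edge of the Dlx island. H3K4me3 over Metap1d, a mitochondrial methionine aminopeptidase gene, covered 1.52 kb with 206 reads in wild type and 2.12 kb with 242 reads in Setd5+/- cells. A further wild-type H3K27me3 island of 2.6 kb and 69 reads lay 0.446 kb outside the Dlx1-Dlx2 window on the Dlx2 side, with no Setd5+/- island there either. Outside the Dlx5-Dlx6 window, small islands of 46 reads in wild type and 47 reads in Setd5+/- cells lay in the same place beyond Dlx5.

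The genes most like each member over the 13 libraries were found by the mean absolute difference in percent of the window covered. These libraries hold every mark given below, so a pattern shared with a Dlx or Gad gene follows from this choice. For Dlx1 these were Foxd3 (1.44 percentage points), Gsx2 (1.56) and En2 (1.80), and for Dlx2 they were Dbx1 (2.23), Hhex (2.27) and Foxd3 (2.56). All of these 5 regulators had H3K27me3 over at least 87.8% of the window in wild type and none in Setd5+/- cells. Foxd3 lies on chromosome 4. For Dlx6 the nearest were Uncx (0.0095), Six6 (0.011) and Foxd4 (0.028), and for Dlx5 they were Hmx1 (0.34), Sox14 (0.43) and Neurod2 (0.43), with H3K27me3 kept in both genotypes. Dlx3 was nearest to Runx3 (0.22), Foxn4 (0.23) and Adgrg4 (0.25), and Dlx4 to Prdm8 (1.5), Rab39b (1.63) and Zpbp2 (1.69).
The Gad genes had other company. Gad1 was nearest to Aldh6a1 (2.44), Pex2 (2.99) and Spata7 (3.10), with 19.9, 19.2 and 32.0 kb of H3K36me3 in wild type and 0, 0 and 4.42 kb in Setd5+/- cells. Gad2 was nearest to Slc5a7 (0.21), Agtr1a (0.25) and Pex7 (0.27).

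Genes of the wider interneuron and GABA programme differed among themselves. The list of 55 genes held regulators, migration receptors, peptides and GABA genes, and all 55 were found. H3K27me3 of at least 1 kb was present at 32 of them, with 11 called lower and 3 higher, against 43.1% and 22.1% of genes with the mark. Those called lower included Ebf1 (77.9 kb to 0), Otx2 (20.9 kb to 0), Six3 (21.6 to 3.99 kb), Sp9 (13.3 kb to 0), Nr2f2 (23.4 to 10.2 kb) and Gsx2 (12.3 kb to 0). Sp9, a zinc finger factor of the ganglionic eminences that lies on chromosome 2 as Dlx1 does, had 264 H3K4me3 reads in wild type and 608 in Setd5+/- cells. The 3 called higher, Erbb4, Nrp2 and Gbx2, are all on chromosome 1.
H3K4me3 was called lower at 2 of the 39 list genes that had it, Sp8 and Reln, and higher at 4, among them Nr2f2 (0.4 to 7.0 kb), Otx2 (0 to 2.2 kb) and Gsx2 (0 to 1.69 kb), against 3.42% and 3.13% of marked genes. H3K36me3 was called lower at 6 and higher at 5 of 18, where 11.9% and 15.1% of marked genes were. H3K27ac was called lower at 2 and higher at 6 of 21, against 17.5% and 18.9%, and those with the largest gains, Prox1, Nrp2 and Cxcr4, are on chromosome 1. H3K4me1 was called lower at 9 of 30, among them Robo1 (24 to 7 kb), and higher at 2, against 48.6% and 8.87% of marked genes. H3K36me2 was called lower at 4 of 14, among them Gphn (43.2 kb to 0), and higher at 5, against 36.7% and 50.9% of genes. SETD5-V5 touched 9 of the 55, against 26.4% of all genes. Factors of the medial ganglionic eminence, named after their values were seen, differed. Nkx6-2 had 7.40 kb of H3K27me3 in wild type and none in Setd5+/- cells, whereas wild-type and Setd5+/- islands covered 15.0 and 10.9 kb at Nkx2-1, 26.8 and 25.6 kb at Lhx6, and 21.6 and 15.8 kb at Lhx8.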

How the data were processed

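The submitters' processing notes name FastQC, Bowtie2 2.2.3, SICER 1.1 and the GRCm38 (mm10) build. Per the labels, libraries had 14 PCR cycles and single reads of 50 bp from cells fixed with 1% formaldehyde. In 5 lists (H3K36me2, H3K36me3 and SETD5-V5) the window was 800 bp, the gap 2400 bp and the FDR 0.01, per the file headers. The 8 remaining headers hold no settings. Each deposited line ends in a whole number, taken from its values to be the authors' counts of reads in the island. Neither the use of inputs as controls nor total reads per library are recorded in the labels or headers. Starts are multiples of 200 bp and ends fall 1 base short of one, so both end bases were counted as covered.

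The members, gene lists and rules were chosen with earlier results of these data known. Named genes were the 8 members, the nearest protein-coding genes, the 3 genes most alike to each member in covered percent outside 100 kb of any member, and list genes called with the largest change in covered length. A gene outside this rule is said to be chosen later. Some marker genes are not reported here. Reads of an island cut by a window were shared out by length. Intervals are exact 95% Poisson intervals for reads and exact binomial ones for ratios of densities of overlapping islands. As the reads carry no molecular identifiers, PCR copies count more than once and intervals cover counting error only. Genes and promoters came from RefSeq GRCm38.p6. Python 3.11.15, numpy 2.4.6, pandas 2.3.3, scipy 1.17.1 and matplotlib 3.10.9 were used. The code for coverage was checked against a direct count, and that for calls on wild-type lists from which the islands of some genes had been removed. Alternatives were other flanks, island thresholds, equal covered length, folds, overlaps, read sharing and scalings.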

Additional observations from a re-analysis of the deposited data

How the results depend on the processing

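Of 75 recomputed counts of called members, 68 stayed within 1.5 times of the main count. Many of these were counts of 0 that stayed at 0, among them all those of H3K36me2, which had no island at any member. A fold of 3 left 3 members with lower H3K27me3 (Dlx1, Dlx2 and Gad2). The stricter threshold, which left out 25% of each list, gave 3 members with higher H3K4me3, since the weak wild-type islands of Dlx4 and Gad2 were left out, and 0 members with SETD5-V5. A fold of 1.5 gave 1 member with lower H3K4me3, Gad1. The lower H3K4me1 call at Dlx2 went to 0 without flanks, under the stricter threshold and at equal covered length. At equal covered length 4 members had lower H3K27me3, as Gad2 lost its wild-type islands, and without flanks 4, as Dlx4 kept 4.75 of 5.85 kb. H3K27me3 at Dlx1 and Dlx2 stayed at 0 in Setd5+/- cells with flanks of 10 kb. The settings without flanks, with the stricter threshold and at equal covered length could add no Setd5+/- island there. They therefore could not change this 0. No called difference at a member changed sign. Of those not called, the H3K4me3 difference in covered length (Setd5+/- minus wild type) went from 0.8 to −0.2 kb at Dlx2 and from −0.2 to 1.2 kb at Dlx4 under the stricter threshold. Scaled to total island reads, the H3K27me3 density differences over Dlx5-Dlx6 were −1.10 to −0.06, against −1.61 to −0.58 when centred on the median of shared autosomal islands. Wild-type H3K27me3 islands without a partner were 46 of 577 from 10 kb (7.97%) and 3 of 69 from 30 kb (4.35%), settings chosen after seeing the data. No paired analysis was possible because each group has 1 library.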
